A study of Mus musculus with 2 samples.

Results

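The axon guidance ligands and receptors were followed as 37 genes, chosen by symbol from the 27998 genes listed in both libraries, and all 37 were found. They were 12 semaphorins, 5 plexins, 2 neuropilins, 2 Slit ligands, 3 Robo receptors, netrin 1 with 2 Unc5 receptors, 4 ephrins, 3 Eph receptors and 3 teneurins. The data were 2 libraries of droplet single-cell RNA sequencing from mice carrying Rosa26mTmG/+ and Fabp4-Cre, in which cells with a history of Cre under the Fabp4 promoter turn GFP-positive. The tumour library held GFP-positive, PDPN-positive cells, labelled as cancer-associated fibroblasts (CAFs), sorted 21 days after FC1245 cells, a mouse line of pancreatic ductal adenocarcinoma, were implanted in the pancreas at 8 weeks of age. The normal library held GFP-positive cells from healthy pancreas of mice aged 6 to 9 weeks. Its label calls them pancreatic stellate cells, resident mesenchymal cells that store vitamin A. Both groups carry the reporter and the Cre, and the number of mice behind each library is not given in the sources used here. There was 1 library in each group, so no test of the condition was possible, and every interval below is a 95% interval of counting error that leaves out the spread between mice. The PDPN gate was used for the tumour sort only, and the enzymes of digestion differed, so gate, digestion and group cannot be told apart. The libraries also differed in the sex of their fibroblast-like cells, as described below.

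Axon guidance proteins steer growing nerve fibres, and the same families act in vessels, mesenchyme and immune cells. Semaphorins signal through plexins, and the secreted class 3 members mostly use neuropilins as co-receptors. Slits bind Robo receptors, netrin 1 binds DCC and Unc5 receptors, membrane-bound ephrins bind Eph receptors on neighbouring cells, and teneurins bind latrophilins. In the pancreas, tumour stroma and nerves grow close together, and these families are studied there for their part in the spread of nerves and of tumour cells along them.

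After filtering, 2520 tumour cells and 4497 normal cells remained, and 4 barcodes occurred in both libraries. Fibroblast-like cells, named from Col1a1, Dcn, Pdgfra and similar markers, made up 87.6% of the tumour cells (2207 cells, 28015196 UMIs) and 32.6% of the normal cells (1467 cells, 13928900 UMIs). A UMI is a unique molecular tag that counts each captured RNA once, and CPM below are UMIs of a gene scaled to a sum of 1000000 UMIs over the cells concerned. Most normal cells were thus not fibroblast-like, and 29.9% were endothelial-like. Fabp4 was at 10475 CPM in the normal endothelial cluster led by Car4, against 54.6 CPM in tumour and 48.2 CPM in normal fibroblast-like cells. Pdpn, the gene behind the gate, was at 430 CPM in tumour and 154 CPM in normal fibroblast-like cells.

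The fibroblast-like cells of the libraries lay in different clusters, found without using any of the 37 genes. Clusters are named after 1 of their 10 genes of highest fold, which need not be the first of them. Tumour cells lay in clusters named after Cthrc1 (380 cells, myCAF-like by contractile and matrix markers), Sfrp4 (544 cells, like universal or adventitial fibroblasts), Apod (454 cells) and Thbs4 (796 cells), of which the Apod and Thbs4 clusters got no subset name. Normal cells lay in clusters named after G0s2 (1057 cells, like resting parenchymal fibroblasts) and Efhd1 (377 cells, like universal or adventitial fibroblasts). Measured subset markers were counted where at least 2-fold higher than in the other fibroblast-like cells of the same library. The Cthrc1 cluster had 10 of 12 myCAF-like and 3 of 3 apCAF-like markers, and the Apod cluster 4 of 8 resting markers. The G0s2 cluster had 6 of 8 resting and 4 of 10 myCAF-like markers. Both adventitial-like clusters shared universal and iCAF-like markers, with 8 of 8 and 6 of 10 in Sfrp4 cells and 8 of 9 and 6 of 9 in Efhd1 cells. Each of these clusters held at most 30 cells of the other library, so that cluster and library largely coincide. The median depth of tumour cells in the Cthrc1 cluster was 26268 UMIs, against 10371 over all tumour fibroblast-like cells, and they weigh accordingly in the tumour sum. Markers of other classes also differed between the sums. Endothelial markers totalled 42.3 CPM in tumour and 154 CPM in normal fibroblast-like cells, macrophage markers 15.3 and 143 CPM, acinar markers 56.7 and 442 CPM, and pericyte or smooth muscle markers 183 and 131 CPM. Schwann or neural markers totalled 170.0 CPM in tumour and 21.3 CPM in normal fibroblast-like cells, with Sox10, a defining marker, at 0 in the tumour sum. Of these 7 markers, 1 was called higher in tumour and 0 lower. The part of the markers of all these other classes in the differences below was not tested.

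In fibroblast-like cells Unc5b, Unc5c, Sema7a and Plxna4 were higher in tumour, and 3 class 3 semaphorins, Robo2, Tenm4 and a pair of plexins were lower. Of the 37 genes, 28 had at least 10 CPM in either sum, and 4 of them were at least 2-fold higher in tumour with an interval that excludes 1. At the same limits 7 were lower and 17 were neither. Over all 8955 genes with at least 10 CPM, 7.38% were higher and 12.7% lower by this rule, and the median log2 fold was -0.29, against -0.18 for the 28. Scaling by TMM or by the median ratio of genes raised every log2 fold by 0.33 or 0.35, and the split was then 6 higher and 6 lower under either, with Sema5a and Nrp2 added and Plxna1 lost. The shares of 7.38% and 12.7% are for CPM without this scaling. The shares of all genes under it are not given here, so the later split has no background beside it.

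**Figure D1:**
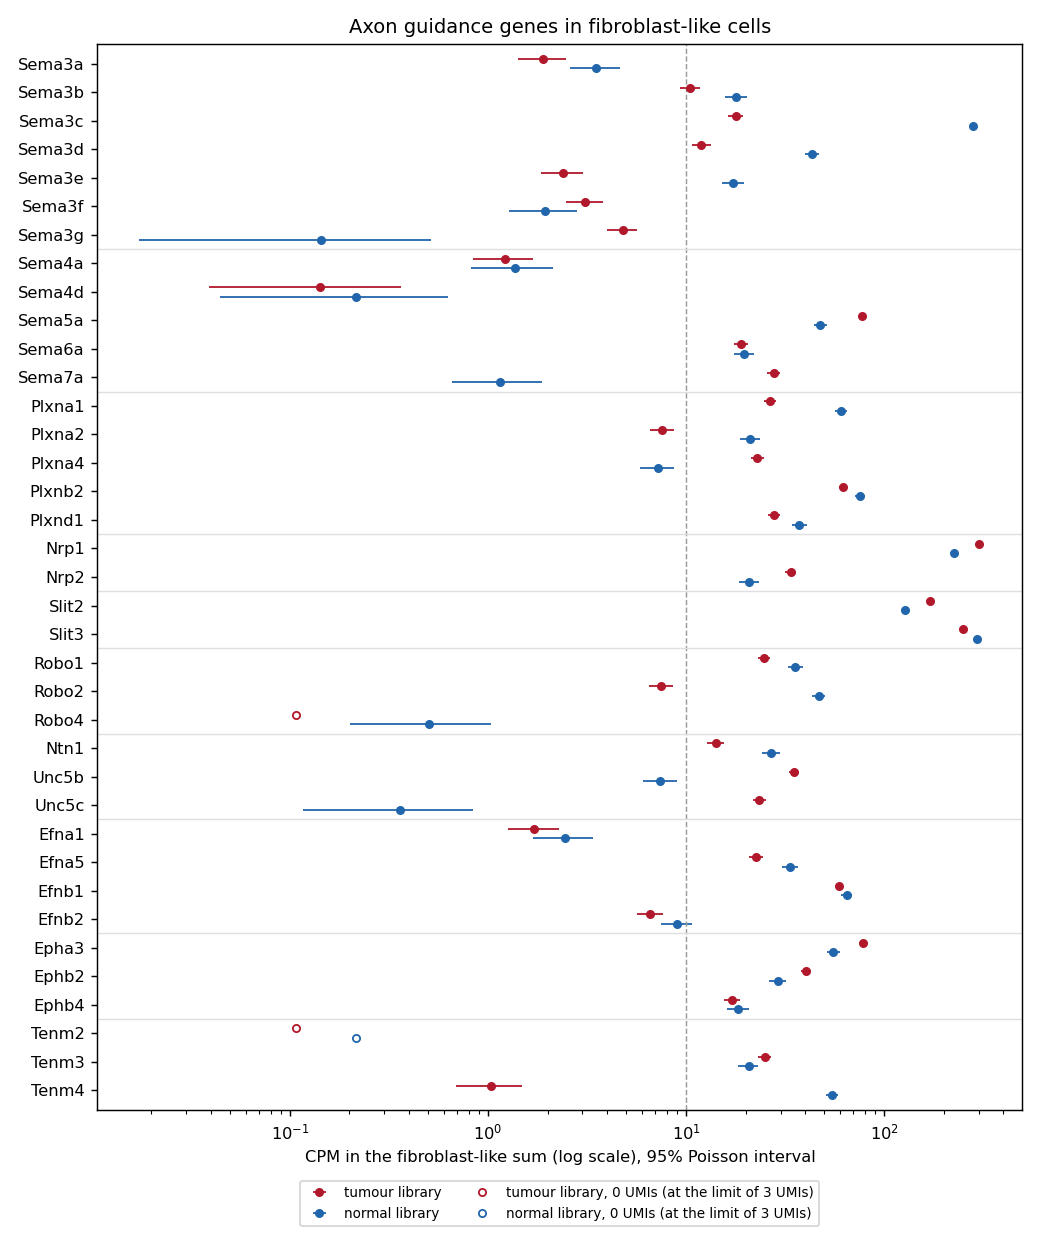
Levels of the 37 genes in fibroblast-like cells of the tumour library (red) and of the normal library (blue), in CPM on a log axis with 95% Poisson intervals, the dashed line marking 10 CPM. Unc5c, Sema7a, Unc5b and Plxna4 lie further right in tumour, Sema3c, Sema3d, Sema3e, Robo2, Tenm4, Plxna1 and Plxna2 further right in normal, and Slit2, Slit3 and Nrp1 lie at or above 127 CPM in both.

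The secreted class 3 semaphorins, repellent and attractive ligands of neuropilin and plexin complexes, were mixed between the libraries, with Sema3c, Sema3d and Sema3e lower in tumour and the other 4 within 2-fold or below 10 CPM. Sema3c (ENSMUSG00000028780, GRCm38 chromosome 5, 17574281 to 17730268), which acts in cardiac neural crest migration in mouse development, had 499 UMIs or 17.8 CPM in tumour and 3908 UMIs or 281 CPM in normal fibroblast-like cells. Sema3d (chromosome 5, 12383385 to 12588948) was at 11.96 CPM in tumour and 43.2 CPM in normal cells. Sema3e (chromosome 5, 14025276 to 14256689), a ligand that binds Plxnd1 without a neuropilin, was at 2.39 CPM in tumour and 17.3 CPM in normal cells. The intervals of the libraries were apart for all 3, with folds of 15.8 lower for Sema3c (14.3 to 17.3), 3.61 lower for Sema3d (3.16 to 4.14) and 7.23 lower for Sema3e (5.50 to 9.63). Sema3b was at 10.5 CPM in tumour and 17.9 CPM in normal cells, 1.70-fold lower (1.43 to 2.02) and thus within 2-fold. Sema3a, a repellent of nerve growth cones (chromosome 5, 13125414 to 13602565), was at 1.89 CPM in tumour and 3.52 CPM in normal cells, and Sema3f at 3.11 and 1.94 CPM. Sema3g ran the other way, with 134 UMIs or 4.78 CPM in tumour and 2 UMIs or 0.144 CPM in normal cells, a ratio of 33.3 (9.04 to 278) that rests on those 2 UMIs and lies below the 10 CPM limit. The genes Sema3d, Sema3a, Sema3e and Sema3c lie in that order on chromosome 5, and Sema3a was the 1 of these 4 below 10 CPM in both sums.

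The stretch before the start of Sema3e is shown for the class 3 ligand whose level also differed with the sex of the cells, described below. It is the 250 bases before the RefSeq start, from RefSeq on GRCm38.p6, printed in the direction of the gene, with capitals marking GGGCGG or its reverse complement CCGCCC, the core of sites for SP and KLF factors.
Sema3e (chr5:14025026-14025275, plus strand): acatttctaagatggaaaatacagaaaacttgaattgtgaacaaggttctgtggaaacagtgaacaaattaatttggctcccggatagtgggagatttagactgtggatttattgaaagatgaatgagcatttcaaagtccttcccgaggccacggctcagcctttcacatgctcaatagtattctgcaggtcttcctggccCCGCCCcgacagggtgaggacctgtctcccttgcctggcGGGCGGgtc
Sema3e held 2 such matches and had 48.0% G or C, against a median of 52.4% over all windows of the table. The table's windows run from 250 bases before to 50 bases after a start, and 31 of the 37 genes had a window, 41 windows in all. The letters were searched in the 250 bases before the start. GGGCGG in either direction occurred in 56.1% of these and in 32.7% of all 32851 windows. TGANTCA, the AP-1 motif, occurred in 2.44% of the members' windows and in 6.75% of all windows. The TEAD motif GGAATG, or CATTCC on the other strand, occurred in 12.2% and 12.6%, and TATAAA or its complement in 4.88% and 12.4%. These are matches of letters and not sites of binding.

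Within the fibroblast-like cells, Sema3c, Sema3d and Sema3e were highest in the adventitial-like cluster of either library, while Sema3g and Sema3f were not. Sema3g was at 10.5 CPM in the tumour Cthrc1 cluster, against 2.31 CPM or less in the other 3 tumour clusters. Sema3f was lowest in the Sfrp4 cluster, with 7 UMIs or 1.23 CPM, and in the Efhd1 cluster, with 2 UMIs or 0.403 CPM. In normal cells its interval there overlaps that of the G0s2 cluster, at 1.28 CPM. Sema3c was at 66.4 CPM in the tumour Sfrp4 cluster, against 6.51 CPM or less in the other 3 tumour fibroblast clusters, and at 731 CPM in the normal Efhd1 cluster, against 23.0 CPM in the G0s2 cluster. Sema3d was at 36.2 CPM in the Sfrp4 cluster, against 7.81 CPM or less in the other tumour clusters, and at 109 CPM in the Efhd1 cluster, against 5.49 CPM in the G0s2 cluster. Sema3e was at 9.81 CPM in the Sfrp4 cluster and 45.7 CPM in the Efhd1 cluster, with at most 0.902 CPM in any of the other 4. The Sfrp4 cluster held 24.6% of tumour and the Efhd1 cluster 25.7% of normal fibroblast-like cells. By UMIs, the Sfrp4 cluster held 5711345 of 28015196 and the Efhd1 cluster 4964562 of 13928900. Adventitial-like cells thus weigh more in the normal sum than in the tumour sum. The tumour value was also lower where the adventitial-like clusters alone were compared. The folds were 11.02 lower for Sema3c (9.91 to 12.3), 3.01 lower for Sema3d (2.56 to 3.55) and 4.66 lower for Sema3e (3.47 to 6.36).

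In that comparison of Sfrp4 with Efhd1 cells, 23 guidance genes had at least 10 CPM, 3 were higher in tumour and 6 lower, where 8.19% of 8540 genes were higher and 8.29% lower. Nrp1, the neuropilin co-receptor of class 3 semaphorins and of VEGF, was at 222 CPM in tumour and 96.3 CPM in normal cells, 2.31-fold higher (2.08 to 2.57). Sema5a and Ephb2 were 2.26-fold (1.87 to 2.74) and 2.04-fold (1.61 to 2.58) higher. Beside the 3 semaphorins, Plxna1, Ntn1 and Efnb2 were lower, by 2.34-fold, 2.34-fold and 2.18-fold. Unc5c, Sema7a, Unc5b, Plxna4, Robo2 and Tenm4 were all below 10 CPM in both of these clusters.

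**Figure D2:**
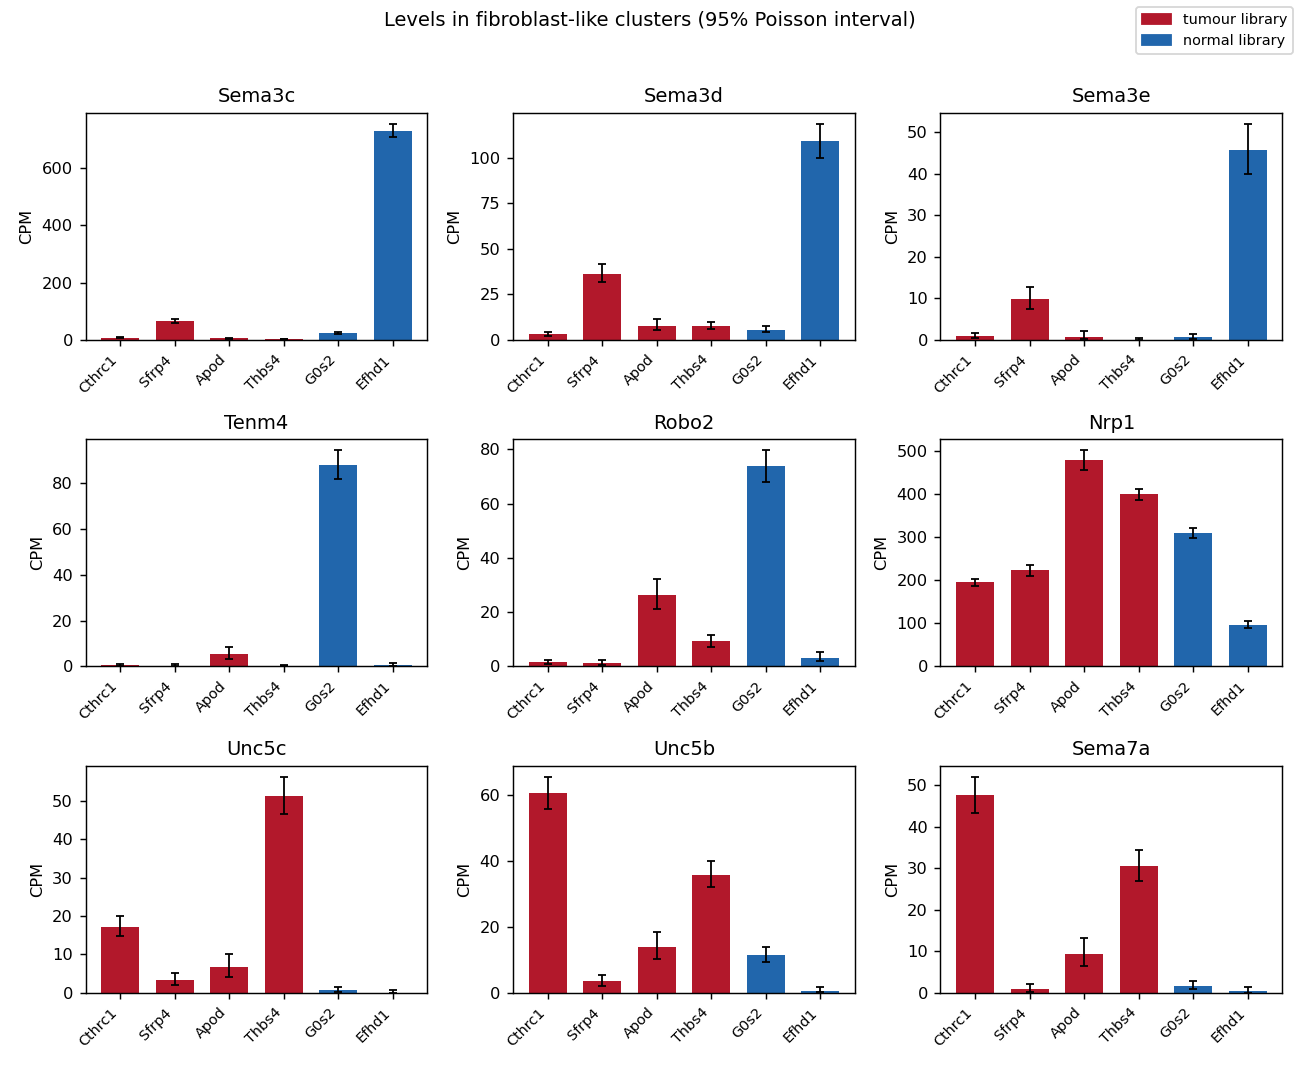
CPM of 9 guidance genes in the 4 tumour (red) and 2 normal (blue) fibroblast-like clusters, each named by a leading gene, with 95% Poisson intervals and a scale of its own for each gene. Sema3c, Sema3d and Sema3e peak in the Sfrp4 and Efhd1 clusters, Tenm4 and Robo2 in the G0s2 cluster, Unc5c in the Thbs4 cluster, and Unc5b and Sema7a in the Cthrc1 cluster.

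Sema3e also differed with the sex of the cells. By Xist and Y-linked UMIs, 2090 tumour fibroblast-like cells were female and 0 male, while the normal library held 484 female and 751 male cells, and 17 cells had UMIs of both kinds. In the normal Efhd1 cluster Sema3e was at 8.90 CPM (4.44 to 15.9) in female cells, with a UMI in 11 of 97 cells, and at 60.3 CPM (52.3 to 69.2) in male cells, with a UMI in 95 of 249 cells. The female value overlaps that of the female tumour Sfrp4 cluster, 9.81 CPM, and the male value lies above both. Against normal female cells alone the Sema3e log2 fold was -0.10, in place of -2.85, so the lower level in tumour was not seen once the sex was matched. For Sema3c and Sema3d that log2 fold was -3.86 and -1.66. In the Efhd1 cluster Sema3c was at 878 CPM in female and 702 CPM in male cells, and Sema3d at 120 CPM (101 to 141) and 107 CPM (96.4 to 119). Sema3a was at 2.43 CPM (0.501 to 7.10) in female and 9.55 CPM (6.53 to 13.5) in male cells of that cluster. Over all normal fibroblast-like cells, Unc5b (10.2 CPM in female and 4.74 CPM in male cells) was the 1 guidance gene called higher in female cells and Sema3e the 1 called lower, where 0.5% and 0.58% of 8800 genes were. The Efhd1 cluster held 20.04% of female and 33.2% of male normal fibroblast-like cells. How many mice of each sex gave these cells is not given, so sex and animal cannot be told apart.

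**Figure D3:**
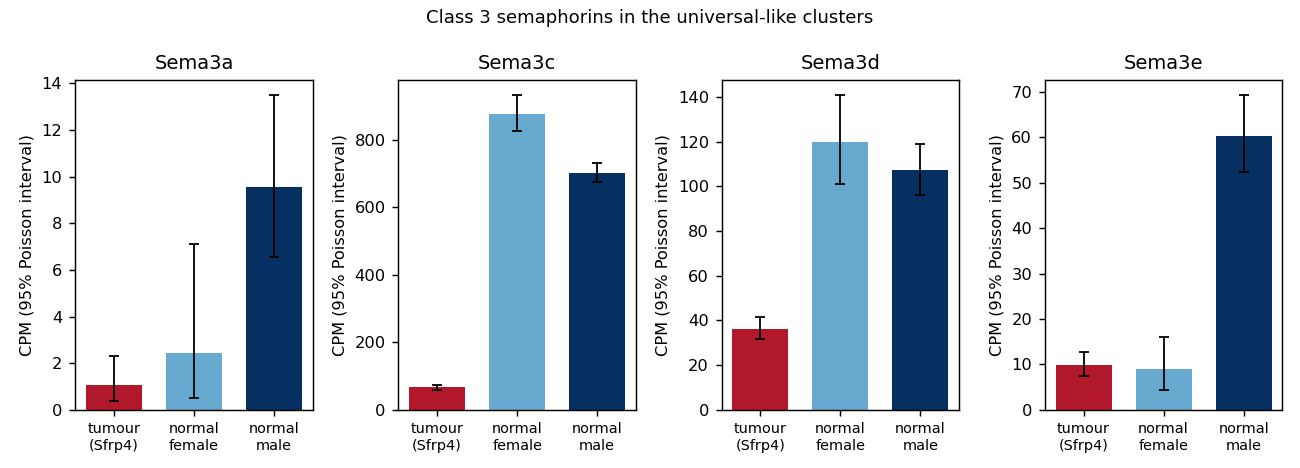
CPM of 4 class 3 semaphorins in the tumour Sfrp4 cluster (red), in female cells of the normal Efhd1 cluster (light blue) and in its male cells (dark blue), with 95% Poisson intervals. Sema3c and Sema3d are lower in tumour than in either sex, and Sema3e is at 9.81 CPM in tumour, 8.90 CPM in normal female and 60.3 CPM in normal male cells.

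Among the other semaphorins, Sema7a, a membrane-anchored ligand of integrins and of plexin C1, differed most between the sums. Sema7a (ENSMUSG00000038264, chromosome 9, 57940112 to 57962865) had 775 UMIs or 27.7 CPM in tumour and 16 UMIs or 1.15 CPM in normal fibroblast-like cells, 24.1-fold higher (14.7 to 42.3). Its log2 fold of 4.59 was 3.86 without the Cthrc1 cluster. Normal macrophage-like cells had 0.469 CPM of it and normal endothelial-like cells 137 CPM, so the normal fibroblast level is close to that of a class with little of this RNA. In tumour it was at 47.6 CPM in the Cthrc1 cluster and 30.4 CPM in the Thbs4 cluster, against 9.26 CPM in the Apod and 0.875 CPM in the Sfrp4 cluster. Sema5a, a transmembrane ligand with thrombospondin repeats, was at 77.6 CPM in tumour and 47.7 CPM in normal cells, 1.63-fold higher (1.49 to 1.78). Sema6a was at 18.95 CPM in tumour and 19.7 CPM in normal cells, a ratio of 0.964 (0.831 to 1.12). Sema4a and Sema4d, which act on immune cells, were at 1.36 CPM or less in both sums.

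Of the 5 plexins among the 37 genes, 1 was higher and 2 were lower. Plxna4 was at 22.9 CPM in tumour and 7.18 CPM in normal cells, 3.19-fold higher (2.58 to 3.98). Its level was 41.4 CPM in the Cthrc1 cluster, and without that cluster its log2 fold was 0.82 in place of 1.67 and no longer 2-fold. Of its 100 normal UMIs, 22 lay in the G0s2 cluster (2.57 CPM) and 27 in the Efhd1 cluster (5.44 CPM), both below 7.18 CPM. The rest came from the few normal fibroblast-like cells in the other clusters. Plxna1 was at 26.5 CPM in tumour and 60.4 CPM in normal cells, 2.28-fold lower (2.06 to 2.52), and Plxna2 at 7.57 and 21.0 CPM, 2.78-fold lower (2.32 to 3.33). The Plxna1 fold depended on the scaling, with a log2 fold of -1.19 by CPM, -0.85 under TMM and -0.84 under the median ratio. Plxna2 was at 283 CPM in normal endothelial-like cells, whose markers were also lower in the tumour fibroblast sum. Plxnd1, the receptor of Sema3e, was at 27.8 CPM in tumour and 37.4 CPM in normal cells, and Plxnb2 at 61.9 and 75.8 CPM, both within 2-fold. Nrp1 was at 299.8 CPM in tumour and 226 CPM in normal cells, 1.32-fold higher (1.27 to 1.38), and Nrp2, which prefers Sema3f and VEGF-C, at 33.8 and 20.9 CPM, 1.62-fold higher (1.42 to 1.85).

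Slit2 and Slit3 were within 2-fold between the libraries, while their receptor Robo2 was lower in tumour. Slit2 was at 171 CPM in tumour and 127 CPM in normal cells, 1.34-fold higher (1.27 to 1.42), and Slit3 at 249 and 295 CPM, 1.18-fold lower (1.14 to 1.23). Outside the fibroblast-like class, Slit2 was at most 65.6 CPM and Slit3 at most 99.7 CPM in any named cluster, both among the pericyte-like or smooth muscle-like cells. Slit2 reached 283 CPM in the Thbs4 cluster and 77.0 CPM in the Sfrp4 cluster of the tumour library. Robo1 was at 24.8 CPM in tumour and 35.7 CPM in normal cells, 1.44-fold lower (1.28 to 1.62). Robo2 (chromosome 16, 73891839 to 74411825) was at 7.496 CPM in tumour and 46.8 CPM in normal cells, 6.24-fold lower (5.34 to 7.33). It was found mostly in the normal G0s2 cluster, at 73.7 CPM, and in the tumour Apod cluster, at 26.3 CPM, with 9.14 CPM or less in the other 4. Slit1, which is not among the 37 genes, had 86 UMIs or 3.07 CPM in tumour and 0 UMIs in normal cells, a log2 fold of at least 3.83 against the limit of 3 UMIs, and stayed below 10 CPM. Robo4, the endothelial Robo, had 0 UMIs in tumour, which allows up to 0.107 CPM at a limit of 3 UMIs, and 7 UMIs or 0.503 CPM in normal fibroblast-like cells.

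Unc5b and Unc5c were higher in tumour, while their ligand netrin 1 was within 2-fold. Of the Unc5 receptors outside the 37 genes, Unc5a was at 8.32 CPM in tumour and 7.97 CPM in normal cells, a ratio of 1.04 (0.829 to 1.32), and Unc5d had 3 UMIs in tumour and 0 in normal cells. Unc5c (ENSMUSG00000059921, chromosome 3, 141465216 to 141834924), a repulsive netrin receptor with a death domain, had 657 UMIs or 23.5 CPM in tumour and 5 UMIs or 0.359 CPM in normal fibroblast-like cells. The ratio was 65.3 (27.9 to 202), and normal macrophage-like and endothelial-like cells had 0 UMIs of it. Unc5b (ENSMUSG00000020099, chromosome 10, 60762593 to 60831581), the family member best known from endothelium, was at 35.1 CPM in tumour and 7.39 CPM in normal cells, 4.75-fold higher (3.87 to 5.88). Its log2 fold of 2.25 was 1.51 without the Cthrc1 cluster and 1.60 with every cell weighted the same, still past 2-fold. Ntn1 was at 14.2 CPM in tumour and 26.9 CPM in normal cells, 1.90-fold lower (1.65 to 2.19). In cells with a Pdpn UMI in both libraries its log2 fold was -1.08, past 2-fold, in place of -0.93. Unc5c peaked at 51.3 CPM in the Thbs4 cluster, and Unc5b at 60.5 CPM in the Cthrc1 and 35.9 CPM in the Thbs4 cluster. In the Sfrp4 cluster Unc5c was at 3.33 CPM and Unc5b at 3.50 CPM. The 250 bases before the RefSeq starts of Unc5b and Sema7a, of the 3 genes with the largest tumour-over-normal ratios among those called higher, are given with the same marks and build. For Unc5c, and likewise for Sema3c, these bases lie in a GENCODE exon and are not shown.
Unc5b (chr10:60831582-60831831, minus strand): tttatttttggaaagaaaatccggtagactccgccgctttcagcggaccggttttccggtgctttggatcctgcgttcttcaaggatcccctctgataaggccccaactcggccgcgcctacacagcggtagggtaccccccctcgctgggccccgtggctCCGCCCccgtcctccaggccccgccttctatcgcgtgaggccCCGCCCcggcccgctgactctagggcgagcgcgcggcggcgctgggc
Sema7a (chr9:57939862-57940111, plus strand): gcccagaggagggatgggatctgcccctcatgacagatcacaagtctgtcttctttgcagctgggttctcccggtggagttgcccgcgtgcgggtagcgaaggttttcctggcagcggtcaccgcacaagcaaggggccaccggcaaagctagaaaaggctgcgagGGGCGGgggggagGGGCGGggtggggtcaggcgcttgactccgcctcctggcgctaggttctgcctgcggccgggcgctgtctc
Unc5b and Sema7a held 2 matches each to GGGCGG or CCGCCC. None of the 3 stretches shown held the AP-1, TEAD or TATA motif on either strand.

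Shares of cells with a UMI ran the same way as the levels for Unc5c, Sema7a and Robo2. With each cell thinned to 2000 UMIs, which kept 2118 tumour and 1440 normal fibroblast-like cells, Unc5c was found in 4.30% of tumour and 0.0694% of normal cells (16.1% and 0.341% without thinning). Sema7a was found in 3.40% of tumour and 0.139% of normal thinned cells (14.7% and 1.09% without thinning). Robo2 was found in 2.36% of tumour and 9.10% of normal thinned cells (7.57% and 28.6% without thinning). In 660 normal macrophage-like cells thinned alike, 0 had a UMI of Unc5c or Sema7a, which allows a share of up to 0.455%, and 0.152% had a UMI of Robo2. Their median before thinning was 8817.5 UMIs, against 10371 in tumour and 8987 in normal fibroblast-like cells. Other called genes were more frequent in them. Plxna4 was found in 7.58% of these macrophage-like cells, against 2.83% of tumour and 0.903% of normal thinned fibroblast-like cells. Plxna1 was found in 4.09% of these macrophage-like cells, Tenm4 in 1.67% and the remaining called genes in at most 0.909%. The normal thinned shares of Unc5c and Sema7a lie below the limit of 0.455%. That limit is set by the number of macrophage-like cells, so it cannot show whether these shares are background. Without thinning, 0.297% of macrophage-like cells had a UMI of Sema7a and 0% of Unc5c.

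Ephrins and Eph receptors, which signal at cell contacts, were within 2-fold between the fibroblast sums where they had at least 10 CPM. Epha3 was at 78.4 CPM in tumour and 55.5 CPM in normal cells, 1.41-fold higher (1.30 to 1.53), and Ephb2 at 40.5 and 29.1 CPM, 1.39-fold higher (1.24 to 1.56). Ephb4, the venous receptor of ephrin B2, was at 17.1 CPM in tumour and 18.4 CPM in normal cells. Among ligands, Efna5 was at 22.6 CPM in tumour and 33.5 CPM in normal cells, and Efnb1 at 59.4 and 64.8 CPM. Efna1 and Efnb2 were below 10 CPM in both sums, and so was Epha2, outside the 37 genes, at 4.75 CPM in tumour and 0.862 CPM in normal cells, 5.51-fold higher (3.05 to 10.9). Epha3 reached 146 CPM in the tumour Thbs4 cluster, with 35.2 to 54.8 CPM in the other 3 tumour clusters, and Efna5 was highest in the adventitial-like clusters, at 53.1 CPM in Sfrp4 and 73.5 CPM in Efhd1 cells.

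Teneurins are large adhesion proteins that match neurons with their targets. Tenm4 (chromosome 7, 96171246 to 96911093) had 29 UMIs or 1.04 CPM in tumour and 759 UMIs or 54.5 CPM in normal cells, 52.6-fold lower (36.4 to 79.1). In the normal library the G0s2 cluster had 88.0 CPM and the Efhd1 cluster 0.403 CPM, and in tumour the Apod cluster had 5.50 CPM and the other 3 at most 0.401 CPM. Tenm3 was at 24.95 CPM in tumour and 20.7 CPM in normal cells, 1.21-fold higher (1.05 to 1.39). Tenm2 had 0 UMIs in both fibroblast sums, which allows up to 0.107 CPM in tumour and 0.215 CPM in normal cells.

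Within a library the guidance genes also separated adventitial-like cells from the other fibroblasts. In tumour, 3 were at least 2-fold higher in the Sfrp4 cluster than in the other fibroblast-like cells (Sema3c, Sema3d and Efna5) and 6 lower (Sema7a, Plxna4, Slit2, Unc5b, Unc5c and Epha3), where 4.54% of 8254 genes were higher and 5.78% lower. In normal pancreas, 6 were higher in the Efhd1 cluster (Sema3b, Sema3c, Sema3d, Sema3e, Efna5 and Efnb2) and 8 lower (Plxna2, Plxnd1, Nrp1, Slit2, Robo2, Unc5b, Epha3 and Tenm4), where 5.35% of 8976 genes were higher and 9.29% lower. Sema3c was 12.3-fold (10.0 to 15.3) higher in Sfrp4 cells and 23.5-fold (20.8 to 26.6) higher in Efhd1 cells than in the other fibroblasts of the same library. Slit2 was 2.53-fold lower in Sfrp4 cells and 2.70-fold lower in Efhd1 cells. These clusters were found from the same cells, so the values describe them.

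**Figure D4:**
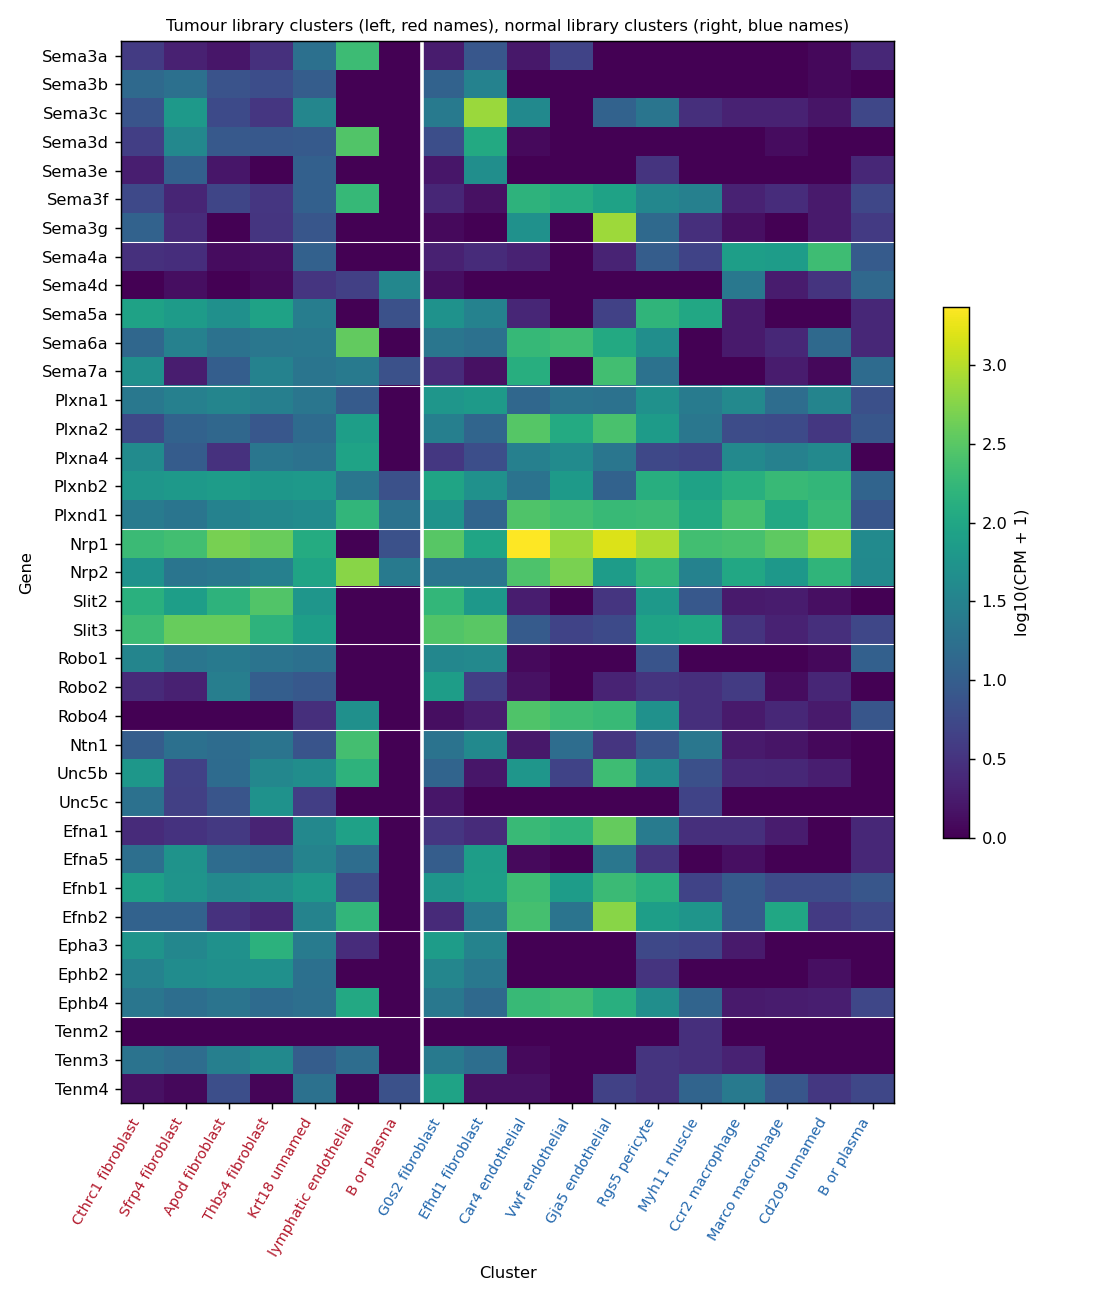
Levels of the 37 genes, as log10 of CPM + 1, in clusters of at least 50 cells of the tumour library (left) and of the normal library (right), each named by a leading gene or class. Slits, Robo1, Epha3 and Ephb2 are bright in fibroblast columns, Robo4, Efnb2, Plxna2 and Nrp1 in normal endothelial columns, and Sema3a, Sema3d, Sema6a and Nrp2 in the tumour lymphatic column.

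Outside the fibroblasts, many of the genes below 10 CPM in the fibroblast sums were higher in another class. Of the 37, 15 had their highest normal level in an endothelial-like cluster, 16 in a fibroblast-like cluster and 6 elsewhere. The same split over all genes is not given here. Some of these places are uncertain, as for Tenm2 and Unc5c, which rest on 1 and 2 UMIs. For others, such as Sema3a, Sema4d, Plxna4 and Ntn1, the intervals of the highest and the next cluster overlap. Nrp1, the VEGF co-receptor, was at 2346 CPM (2302 to 2391) in the endothelial-like cluster led by Car4, and Robo4 at 275 CPM there. In the endothelial-like cluster led by Gja5, a connexin of arteries, Sema3g was at 758 CPM, Efnb2, the arterial ephrin, at 594 CPM and Efna1 at 376 CPM. Nrp2 was at 487 CPM (406 to 578) in the endothelial-like cluster led by Vwf. Sema5a was at 160 CPM (125 to 201) in the pericyte-like cluster named after Rgs5. Sema4a was at 73.0 and 76.3 CPM in the macrophage-like clusters and at 213 CPM in a cluster without a class name that has Cd209 genes among its first 10 and carries macrophage markers. In tumour, the 68 lymphatic endothelial-like cells had Nrp2 at 598 CPM (538 to 664), Sema6a at 367 CPM, Sema3d at 285 CPM, Ntn1 at 228 CPM and Sema3a at 201 CPM. Nrp1 had 0 UMIs in these cells, which allows up to 5.03 CPM. Such cells were too few in the normal library, at 14, to compare.

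Of 75 other genes of these pathways, 36 had at least 10 CPM in either fibroblast sum, 3 were at least 2-fold higher in tumour and 8 lower. These were 8.33% and 22.2% of the 36, where 7.38% of 8955 genes were higher and 12.7% lower. The higher ones act inside the cell. Mical2, a redox enzyme of the family that oxidizes actin, was at 99.9 CPM in tumour and 26.3 CPM in normal cells, Enah, an actin elongation factor, at 76.7 and 22.0 CPM, and Rnd1, a GTPase that binds plexins, at 22.8 and 5.46 CPM. Their folds were 3.79 (3.40 to 4.24), 3.48 (3.09 to 3.93) and 4.18 (3.29 to 5.38) higher. Among the lower ones, Ablim1, an actin-binding protein whose worm homologue acts in axon guidance, was at 42.2 CPM in tumour and 178 CPM in normal cells, 4.22-fold lower (3.94 to 4.53). Flrt3, a ligand of latrophilins and Unc5 receptors, was 3.50-fold lower, Rgma, a ligand of neogenin, 2.87-fold, Sema6d 2.79-fold, Fyn, a kinase downstream of several guidance receptors, 2.47-fold and Chn1, a Rac regulator in Eph signalling, 2.22-fold. The other 2 lower genes, Srgap2 and Rgmb, were 2.14-fold and 2.10-fold lower, and 25 were neither. Without a CPM minimum the counts over the 73 of these genes with a UMI were 12 higher and 15 lower.

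**Figure D5:**
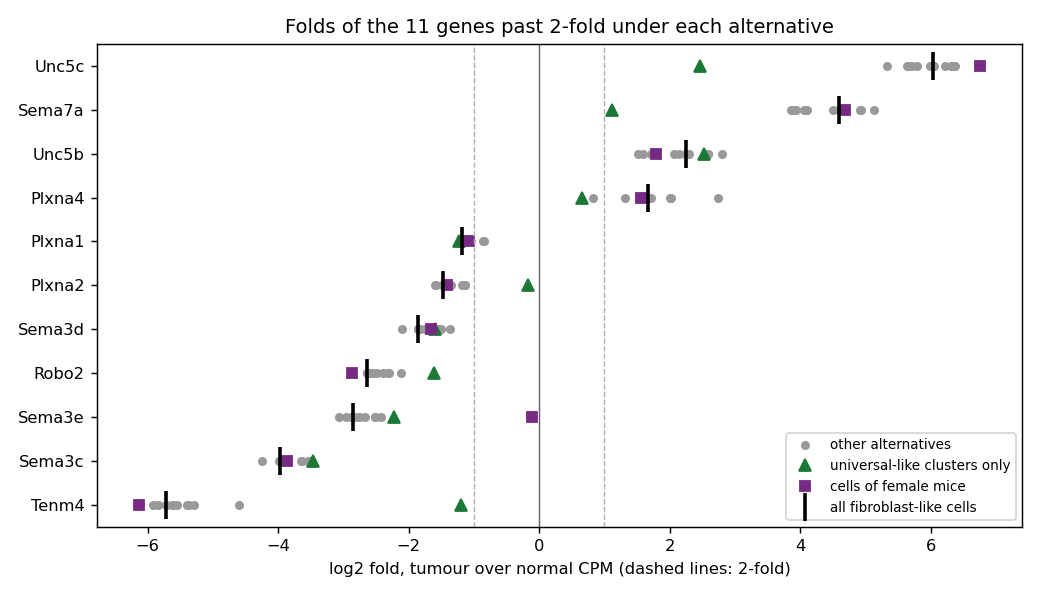
Log2 fold of tumour over normal CPM for the 11 guidance genes called, over all fibroblast-like cells (black bar) and under each alternative (points), with dashed lines at 2-fold. Each of the 11 log2 folds keeps its sign under the 16 alternatives, which for some values says little. Sema3e is at -0.10 against normal cells of female mice and Plxna2 at -0.18 in the adventitial-like clusters. In those clusters the ratio intervals of Plxna2, Plxna4, Sema7a and Tenm4 include 1. There Sema7a rests on 5 UMIs in tumour and 2 in normal cells, and Tenm4 on 1 and 2.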

How the data were processed

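Single-cell 3′ RNA libraries of tumour and normal cells were deposited as raw UMI counts for each gene and barcode, which the authors made with Cell Ranger 3.1.0 on mm10 (the submitters' processing notes, and for the version also the file headers). Barcodes had already been called as cells, per the deposited lists. Of 2942 tumour and 5437 normal barcodes, 2573 and 4616 passed a filter of 500 genes, 1000 UMIs and no more than 10% mitochondrial UMIs. Scrublet's automatic threshold removed 119 normal doublets (2.58%). It marked 0.0777% of tumour cells, below a limit of 0.5%, so the 53 top scores were removed at an expected 0.8% per 1000 cells. Clustering (scanpy 1.11.5, igraph 0.11.9) used both libraries at once with no integration (2000 variable genes, 30 components, 15 neighbours, resolution of 0.5), leaving out the 37 genes and the other pathway genes. Clusters were named for the class whose markers had the highest mean share of cells with a UMI. At least 3 of these markers had to be found in at least 25% of the cells. The name was dropped if markers of another class outnumbered theirs among the 10 genes of highest fold. Markers of fibroblast subsets counted as fibroblast markers there, and a fibroblast cluster took the subset with most markers 2-fold higher, if at least 3 and with a median log2 fold of at least 1. Clusters or classes under 50 cells in a library are not described.

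Counts were summed over the cells of a class or cluster and scaled to CPM, so that 1 deep cell weighs more than a shallow one. Folds have exact intervals for ratios of Poisson counts (scipy 1.17.1) at 95%, and shares use Clopper-Pearson limits. A gene was called at 2-fold or more, an interval excluding 1 and at least 10 CPM in the tumour or normal sum. The limit for 0 UMIs was set at 3 UMIs. These intervals cover counting error only. TMM and median ratio scaling came from edgeR 4.0.16 and DESeq2 1.42.0. The rule for named genes took all 37 genes, Fabp4 and Pdpn, the class markers, and up to 6 other pathway genes called in each direction with the largest folds; Srgap2, Rgmb, Slit1, Unc5a, Unc5d and Epha2 were added to it after their values were seen. Gene positions are from GENCODE vM21 on GRCm38. The genes, lists and alternatives were chosen with earlier results of these data known.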

Additional observations from a re-analysis of the deposited data

Results flagged for a closer look

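Plxna2, a receptor for class 6 and, with neuropilins, class 3 semaphorins, ran in opposite directions between adventitial-like and other fibroblasts of the libraries. In tumour it was at 10.3 CPM in the Sfrp4 cluster and 6.86 CPM in the other fibroblast-like cells, a log2 fold of 0.59. That is 1.51-fold higher (1.10 to 2.05) and thus within 2-fold and not called. In normal pancreas it was at 11.7 CPM in the Efhd1 cluster and 26.2 CPM in the other fibroblast-like cells, a log2 fold of -1.17. That is 2.24-fold lower (1.68 to 3.05), the 1 side that was called. With 1 library for each group this difference was not tested.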

How the results depend on the processing

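Over the 16 alternatives, 576 values of single guidance genes were computed, of which 544 stayed on their side of the 2-fold call, 19 lost it, 13 gained it and 0 changed direction while called. The median log2 fold of the guidance genes, -0.18, was 0.15 under TMM and 0.16 under the median ratio, where the median of all genes was 0.06 and 0.08. A minimum of 50 CPM left 10 guidance genes, of which 0 were higher and 3 lower. With that minimum 5 other pathway genes were lower, and without a minimum 12 were higher and 15 lower. Under TMM and under the median ratio 4 other pathway genes were lower, and 5 were in the adventitial-like clusters, an alternative chosen after seeing the data. In those clusters Unc5c, Sema7a, Unc5b, Plxna4, Robo2 and Tenm4 lost the call by falling below 10 CPM, where Unc5b was still 5.79-fold higher (1.72 to 30.5) and Unc5c had 19 UMIs in tumour and 0 in normal cells, while Plxna2 lost its fold, with a ratio of 0.884 (0.605 to 1.29). The Plxna4 log2 fold ranged from 0.66 in those clusters to 2.74 at a resolution of 1. Sema3b reached -1.01 with cells thinned to 5000 UMIs. No paired analysis was possible because each group has 1 library. Depth limits the genes with few UMIs in either sum, such as Sema3g with 2 UMIs in normal cells.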

Other observations

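A cluster of 90 tumour cells with Krt18, Krt8 and Krt7 among its 10 genes of highest fold carried fibroblast markers as well and stayed unnamed, so its values are in no comparison. It had Nrp2 at 91.1 CPM, Unc5b at 43.4 CPM, Sema3c at 34.1 CPM, Tenm4 at 17.3 CPM (12.2 to 23.8) and Sema3a at 16.3 CPM. In the 4 tumour fibroblast-like clusters Tenm4 was at most 5.50 CPM and Sema3a at most 2.81 CPM.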
